A study of Mus musculus with 2 samples.

Results

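The keratin genes were compared between 2 sorted fractions, CD133-positive and CD133-negative, of GIF-5. This cultured line derives from mouse gastric epithelium and lacks Runx3 and p53. Members were the non-control spots whose gene name in the scanner files begins with Krt and a digit, older hyphenated names included and keratin-associated proteins excluded. This gave 50 spots with 50 probes for 42 keratin genes, of 43379 non-control spots, 41174 probes and 27670 gene names. Of the 42 genes, 6 are simple-epithelial keratins, 17 are keratins of stratified epithelia, 16 belong to hair and its root sheath, and 3 were left unplaced.

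Both fractions came from the same Runx3-/-p53-/- line, grown in DMEM with bovine serum, and differed only in the sort on CD133 with a phycoerythrin-coupled antibody, so no cells with intact Runx3 or p53 were compared. On each of 2 Agilent arrays, RNA of CD133-positive cells was labelled with Cy3 and RNA of CD133-negative cells with Cy5, in the same orientation, so a dye effect and the fraction cannot be told apart. The labels call the arrays biological replicates without naming separate cultures, so p-values rest on a spread between arrays that may be technical, that of the gene itself moderated by limma towards that of all genes. The number of arrays limits the precision. A ratio below is the log2 of the CD133-positive signal over the CD133-negative signal, where 1 stands for a 2-fold difference, and a mean over both arrays is given ± limma's moderated SE (n = 2), which is not the SE of the 2 array values alone.

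Keratins are the intermediate filament proteins of epithelial cells. An acidic type I keratin pairs with a basic type II keratin, and the pairs assemble into filaments that are tied to desmosomes and hemidesmosomes. Simple, single-layered epithelia such as the stomach lining are built mainly on Krt8 with Krt18 or Krt19, while Krt5 with Krt14 marks the basal layer and Krt1 with Krt10 the upper layers of stratified epithelia.

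Among the 42 keratins, 24 map to chromosome 11, where mouse type I keratins lie, and 17 to chromosome 15, where the type II keratins and the type I gene Krt18 lie, and 1 was not placed. Promoters of Krt23, Krt20, Krt7, Krt8 and Krt18 are shown because these simple-epithelial keratins include the member with the largest ratio and the pair that makes the main filament of simple epithelia. Krt19, the other simple-epithelial keratin, is named only. They run from 250 bases before to 50 bases after the RefSeq start site (GRCm38.p6), and 28 of the 42 genes had one. Capitals mark the TATA box TATAAA and the GC box GGGCGG, on either strand. The promoter of Krt23 lies on the minus strand at chr11:99493071-99493370, that of Krt20 on the minus strand at chr11:99438104-99438403, that of Krt7 on the plus strand at chr15:101412153-101412452, that of Krt8 on the minus strand at chr15:102004293-102004592 and that of Krt18 on the plus strand at chr15:102027966-102028265.
Krt23: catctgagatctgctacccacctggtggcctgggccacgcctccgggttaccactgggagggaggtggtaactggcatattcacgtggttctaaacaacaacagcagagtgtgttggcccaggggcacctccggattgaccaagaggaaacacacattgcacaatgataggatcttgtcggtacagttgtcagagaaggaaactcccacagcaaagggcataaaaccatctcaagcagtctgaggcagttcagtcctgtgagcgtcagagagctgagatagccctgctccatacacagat
Krt20: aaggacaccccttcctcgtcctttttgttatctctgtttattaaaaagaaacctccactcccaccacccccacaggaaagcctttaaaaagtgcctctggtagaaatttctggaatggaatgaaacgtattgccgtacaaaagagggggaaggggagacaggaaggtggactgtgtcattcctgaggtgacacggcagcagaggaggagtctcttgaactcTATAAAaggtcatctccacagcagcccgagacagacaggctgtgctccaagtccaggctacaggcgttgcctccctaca
Krt7: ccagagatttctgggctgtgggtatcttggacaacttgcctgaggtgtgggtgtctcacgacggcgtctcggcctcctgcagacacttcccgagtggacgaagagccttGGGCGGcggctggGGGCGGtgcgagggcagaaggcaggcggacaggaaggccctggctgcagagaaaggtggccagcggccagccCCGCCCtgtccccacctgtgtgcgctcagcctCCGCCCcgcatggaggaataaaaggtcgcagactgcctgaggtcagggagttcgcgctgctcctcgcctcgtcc
Krt8: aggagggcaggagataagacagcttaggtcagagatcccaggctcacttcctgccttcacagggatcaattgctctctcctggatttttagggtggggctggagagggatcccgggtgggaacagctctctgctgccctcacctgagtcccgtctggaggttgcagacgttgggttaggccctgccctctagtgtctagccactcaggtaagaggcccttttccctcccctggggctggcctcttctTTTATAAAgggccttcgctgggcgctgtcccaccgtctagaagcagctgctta
Krt18: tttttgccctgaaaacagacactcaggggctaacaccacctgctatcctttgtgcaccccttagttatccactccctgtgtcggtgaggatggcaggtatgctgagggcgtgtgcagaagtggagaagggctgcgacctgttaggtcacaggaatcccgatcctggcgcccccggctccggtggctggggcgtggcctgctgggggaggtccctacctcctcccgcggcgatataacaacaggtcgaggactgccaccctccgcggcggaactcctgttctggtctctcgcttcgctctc
The Krt20 window holds 1 TATA box, the Krt8 window 2 overlapping matches on opposite strands, and the Krt7 window 4 GC boxes. Neither motif is written in the windows of Krt23 and Krt18. Over all keratin windows, TATAAA was found in 16 of 29 (1 gene has 2 listed start sites), against 13.6% of all 32851 promoters, and GGGCGG in 2 of 29, against 35.7% of all. The AP-1 motif TGANTCA, searched on both strands, was found in 2 of 29 keratin windows, none of them among those shown, against 7.81% of all promoters. A match of letters is a description and not a site of binding. The type I genes Krt23 and Krt20 are next to each other on chromosome 11, and Krt8 and Krt18 are next to each other on chromosome 15.

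Of the 42 keratins, 18 had a probe well above background in 1 fraction on both arrays and were tested. These were all 6 simple-epithelial keratins, 11 of 17 stratified keratins, 1 of 16 hair and root sheath keratins and none of the 3 unplaced ones. In all, 14 keratins were well above background on both arrays in CD133-positive cells and 18 in CD133-negative cells. Of all non-control spots on arrays 1 and 2, 54.6% and 54.2% were so in CD133-positive cells (Cy3). In CD133-negative cells (Cy5) these shares were 58.1% and 56.8%, so Cy5 had more detected spots in general. A further 23 keratins were never above background in either fraction, and Krt84, a hair keratin, was so only in CD133-negative cells on 1 array.

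Over all 15267 genes tested, 251 (1.64%) passed a limma adjusted p of 0.05, of which 211 (1.38%) were higher and 40 (0.262%) lower in CD133-positive cells. Among the keratins 1 passed, Krt23, which was higher. At an unadjusted p of 0.05, 5 of the 18 keratins were counted, Krt23 and Krt7 higher and Krt8, Krt18 and Krt19 lower, against 27.9% of all genes (1814 higher and 2438 lower), so that share was near the background. Krt23 was also the only keratin at least 2-fold higher on both arrays, against 2.50% of all genes, and none was at least 2-fold lower on both, against 2.12%. The median ratio was -0.04 over the 18 tested keratins and -0.03 over all genes, and 5 keratins were higher and 9 lower on both arrays, against 32.6% and 39.7% of all genes. Of those lower, Krt1, Krt5 and Krt36 entered the test only through CD133-negative cells, so the filter favoured a lower value there. The ratios of the 2 arrays had a Pearson correlation of 0.771 and a Spearman correlation of 0.663 across genes, which are not independent replicates and share the slide and the dye orientation. Prom1, which encodes CD133, was well above background in CD133-positive cells only. On its brighter probe it was higher there by at least 3.57 on the log2 scale, set against the higher of its own CD133-negative signal and the lowest one well above background, in the direction of the sort.

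**Figure D1:**
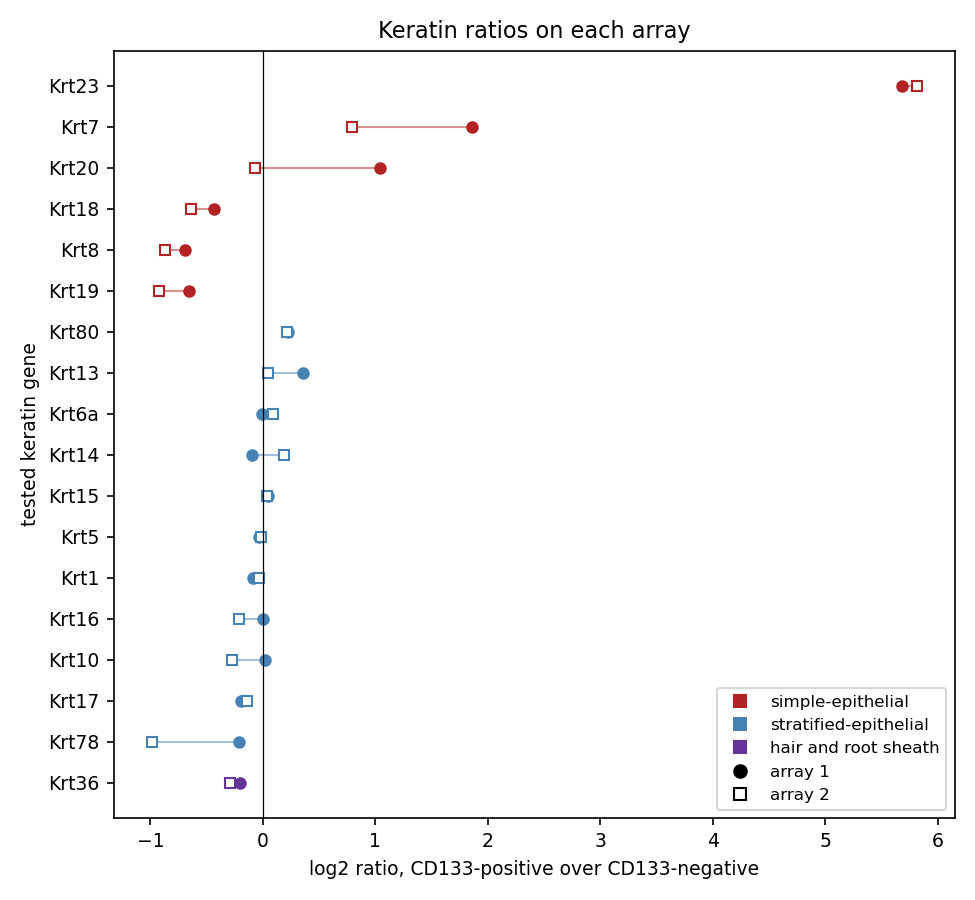
Ratio (log2, CD133-positive over CD133-negative, horizontal) for the 18 tested keratins (vertical), with array 1 as filled circles and array 2 as open squares, coloured by group. Krt23 stands at 5.68 and 5.81, Krt7 is above 0 and Krt8, Krt18 and Krt19 are below 0 on both arrays, and the stratified keratins lie between -0.99 and 0.36.

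The 6 simple-epithelial keratins had mean ratios from -0.79 to 5.75, and they split into 3 above and 3 below 0. Krt23, a type I keratin described as stress-inducible in mouse liver, had normalised log2 signals of 12.48 and 12.94 in CD133-positive cells, against 6.80 and 7.13 in CD133-negative cells. Its signals in the 2 fractions did not overlap, and both were above background. The share of all genes whose fractions did not overlap was not counted, for this gene or those below. Krt23 rose in CD133-positive cells by a log2 ratio of 5.75 ± 0.14, with 5.68 and 5.81 on the arrays and a limma adjusted p of 0.00966. Unlike Krt7 and Krt8, Krt23 had no second probe to set beside this value. Before normalisation, its mean spot intensity was 3750 and 4712 in Cy3 of CD133-positive cells, against 181 and 207 in Cy5 of CD133-negative cells. In sorted bulk RNA, more cells with the transcript and more transcript per cell cannot be told apart.

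Krt7, a type II keratin of ductal and glandular epithelia, had log2 signals of 13.66 and 13.64 in CD133-positive cells, against 11.81 and 12.84 in CD133-negative cells. It was higher in CD133-positive cells on both arrays, and its CD133-positive signals varied less than its CD133-negative ones. Before the loess step of the dye normalisation its ratios were 0.36 and -0.81, so its sign on array 2 rests on a shift of 1.61. The ratio of Krt7 was 1.32 ± 0.30, 1.85 on array 1 and 0.79 on array 2, and did not pass after adjustment (limma adjusted p = 0.104). A second Krt7 probe gave 2.12 and 0.85.

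Krt20, a type I keratin of intestinal and gastric surface cells, had log2 signals of 13.53 and 12.30 in CD133-positive cells, against 12.49 and 12.37 in CD133-negative cells. The fractions overlapped, and its ratios of 1.04 and -0.07 had opposite signs, with a mean of 0.49 ± 0.31 (limma adjusted p = 0.39). Krt20 borders Krt23 on the chromosome. Beyond it lie Krt12, which was not above background, and Krt10, with a ratio of -0.13.

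Krt8, the main type II keratin of simple epithelia, had log2 signals of 16.33 and 16.20 in CD133-positive cells, against 17.02 and 17.07 in CD133-negative cells. Krt18, its type I partner, had 16.34 and 16.24 in CD133-positive cells, against 16.78 and 16.88 in CD133-negative cells. Krt19, a short-tailed type I keratin of glandular epithelia, had 15.44 and 15.04 in CD133-positive cells, against 16.09 and 15.96 in CD133-negative cells. For each of these 3 genes the CD133-positive signals were below both CD133-negative ones. By direction alone, 39.7% of all genes were lower on both arrays. Their ratios were -0.78 ± 0.14 for Krt8, -0.54 ± 0.15 for Krt18 and -0.79 ± 0.15 for Krt19, and none passed after adjustment (limma adjusted p = 0.083, 0.125 and 0.086).

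The size of these 3 ratios rests on the dye normalisation. Before the loess step, ratios were between -2.12 and -2.80, and the step raised them by 1.65 to 1.93, against 1.36 and 1.34 for Krt23. With the deposited processed signals, the ratio of Krt18 was -0.20 and that of Krt19 -0.54. Krt8 had 2 probes that differed, with -0.69 and -0.87 on the brighter one and -0.15 and -0.35 on the other, and with processed signals these were -0.45 and -0.46 on the first and 0.16 and 0.14 on the other. Because the other probe was the brighter one in processed signals, it then represented the gene, at 0.15. The part of the dye step in the result was not tested further. The median ratio of the 6 simple keratins was -0.03, being 0.30 on array 1 and -0.36 on array 2, and without Krt23 it was -0.54.

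**Figure D2:**
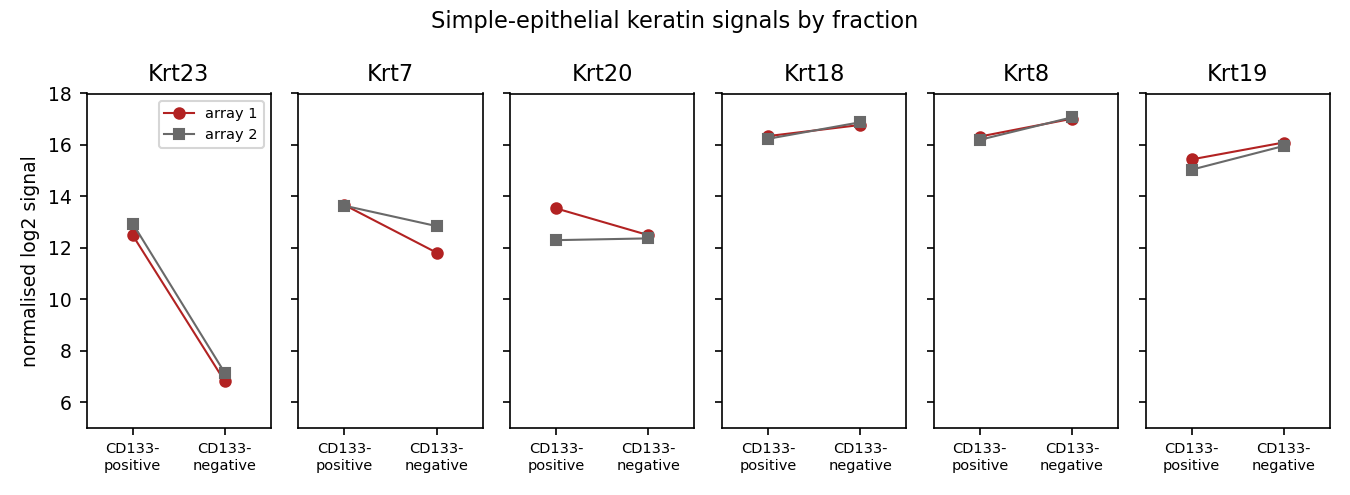
Normalised log2 signal (vertical) of the 6 simple-epithelial keratins in CD133-positive cells (left of each panel) and CD133-negative cells (right), with array 1 as circles and array 2 as squares joined within an array. Krt23 is far higher in CD133-positive cells, and Krt8, Krt18 and Krt19 are slightly lower there, on both arrays. Heights of different probes are not comparable.

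Stratified-epithelial keratins lay near 0. Of the 11 tested, none passed in limma with loess and none reached an unadjusted p of 0.05, and their median ratio was -0.03, between -0.60 for Krt78 and 0.22 for Krt80. Krt5 and Krt14, the basal-layer pair, had ratios of -0.03 and 0.04. Krt1 and Krt10, the suprabasal pair, had -0.06 and -0.13.

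Signals in this group show how close they were to the limit of detection. Krt14 had log2 signals of 6.25 and 6.55 in CD133-positive cells, against 6.35 and 6.37 in CD133-negative cells, and the lowest log2 signal well above background was 6.06 and 6.07 in Cy3 and 5.78 and 5.79 in Cy5 on arrays 1 and 2. Krt5 had 6.35 and 6.31 in CD133-positive cells, against 6.39 and 6.32 in CD133-negative cells. Krt1, Krt5 and Krt6a were above background in CD133-positive cells on 1 array only, so their ratios are of signals near that limit. The tested Krt1 probe is annotated on the other strand from the other Krt1 probe, which was below background, and which of them reads the Krt1 transcript was not determined.

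Krt13, a keratin of moist stratified mucosa, was measured well above the limit, with 11.52 and 11.11 in CD133-positive cells, against 11.16 and 11.06 in CD133-negative cells. Its ratio was 0.20 ± 0.16 and the fractions overlapped. Krt10 had 9.63 and 9.27 in CD133-positive cells, against 9.61 and 9.54 in CD133-negative cells, and here too the fractions overlapped. Second probes of Krt10 and Krt13 were not above background.

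Krt15, a keratin of basal cells, had a ratio of 0.04, and Krt6a, a keratin of wounded and appendage epithelium, also had 0.04. Krt16 and Krt17, which accompany Krt6a in wounds and appendages, had -0.11 and -0.17. Krt80, a widely expressed type II keratin, had signals of 7.37 and 7.26 in CD133-positive cells, against 7.15 and 7.05 in CD133-negative cells, without overlap, and its ratios of 0.22 and 0.21 did not pass (limma adjusted p = 0.379). Krt78, a type II keratin beside Krt8 on chromosome 15, had 6.44 and 6.56 in CD133-positive cells, against 6.66 and 7.55 in CD133-negative cells. The fractions of Krt78 did not overlap, but its ratios of -0.21 and -0.99 differed between arrays (limma adjusted p = 0.208). Between settings the mean ratio of Krt78 ran from -1.43 with processed signals to -0.20 with median centring over the tested probes.

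Stratified keratins never above background were Krt2, Krt4, Krt6b, Krt9, Krt12 and Krt76. Krt4 is the usual partner of Krt13, so in this pair only the type I member was detected. That detection rests on the brighter Krt13 probe, as the other Krt13 probe was not above background.

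Among the hair and root sheath keratins, only Krt36 was tested, through its CD133-negative signal. Krt36, a hair-type keratin, was not above background in CD133-positive cells on either array, where its log2 signal was 6.24 and 6.32, against 6.44 and 6.61 in CD133-negative cells. It entered the test only through the fraction where it was above background, and its ratio of -0.25 did not pass (limma adjusted p = 0.324). Between settings the ratio of Krt36 ran from -1.29 with processed signals to 0.34 with median centring over the tested probes. Krt25, Krt26, Krt27, Krt28, Krt31, Krt32, Krt33a, Krt33b, Krt34, Krt35, Krt71, Krt75, Krt82 and Krt85 were never above background, nor were the unplaced Krt222, Krt42 and Krt87.

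**Figure D3:**
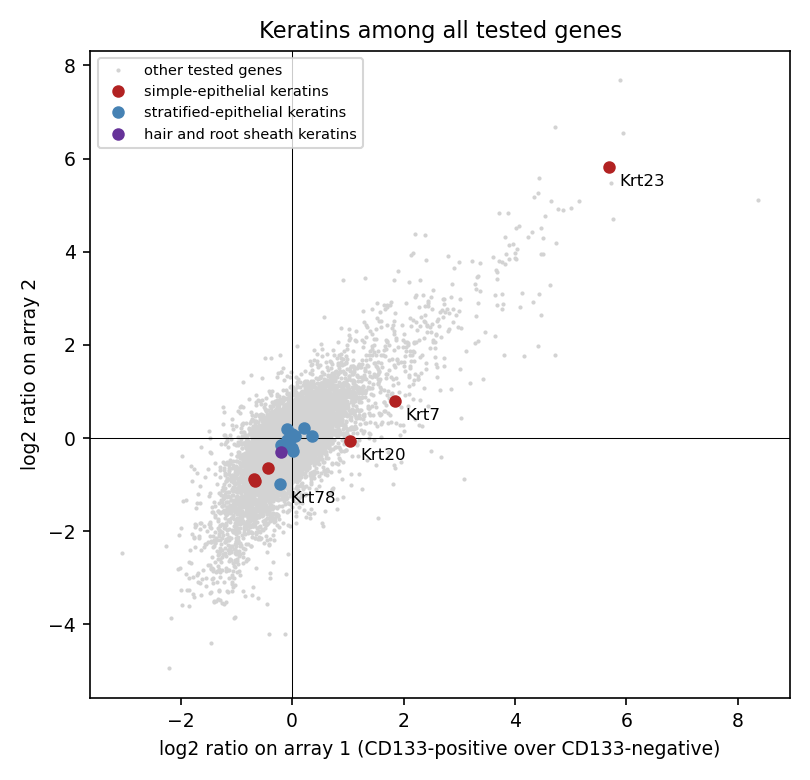
Ratio (log2, CD133-positive over CD133-negative) on array 1 (horizontal) and array 2 (vertical) for all 15267 tested genes (grey) and the 18 tested keratins (coloured by group). Krt23 lies at the far upper right, Krt7 and Krt20 are to the right of 0, and the stratified keratins lie in the centre of the cloud.

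Genes that build, anchor or control keratin filaments were read from 4 lists, and none of their members passed in limma. Among other intermediate filament genes, 8 of 15 were tested, with a median ratio of -0.12, against -0.03 over all genes, and 0 higher and 2 lower at an unadjusted p of 0.05. Of all 15267 genes, 1814 were higher and 2438 lower at that p (27.9% together). Vim, the filament protein of mesenchymal cells, had ratios of -1.19 and -2.21 (-1.70 ± 0.29, limma adjusted p = 0.082). The lamins of the nucleus had -0.82 for Lmna, 0.99 for Lmnb1 and 0.42 for Lmnb2.

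Of the anchors and linkers of keratin filaments, 16 of 17 were tested, with a median of -0.36. Counted at an unadjusted limma p of 0.05 were 1 higher and 6 lower, against 1814 higher and 2438 lower of all 15267 genes (27.9% together). Dsp, the desmosomal plakin that binds keratins, had ratios of -1.78 and -2.99 (-2.38 ± 0.34, limma adjusted p = 0.0672). Plec, which links keratins to hemidesmosomes, had -1.09, and Ppl, another plakin, had -0.95. These values are of the brightest probe, and as the mean over all tested probes of a gene, Dsp had -1.53, Plec -0.59 and Ppl -0.58. Evpl, a plakin of the cornified envelope, had 1.48 and 0.31 and was not counted (limma unadjusted p = 0.0538). The 1 counted as higher was Jup, with ratios of 0.44 and 0.48.

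In the squamous differentiation list, 8 of 23 were tested, with a median of 0.25, and 13 of its members were never above background. At an unadjusted limma p of 0.05, 4 were higher and 1 lower, against 1814 higher and 2438 lower of all 15267 genes (27.9% together). Lor, the major protein of the cornified envelope, had ratios of 2.40 and 3.82 (3.11 ± 0.39, limma adjusted p = 0.0617). Sprr1a and Sprr2a1, small proline-rich envelope proteins, had -1.89 and -0.56, and Sfn, the epithelial 14-3-3 protein, had 0.49. The value of Sprr2a1 is of its brightest probe, and as the mean over all its tested probes it had 0.92. Members of this list, such as Lor and Sprr1a, therefore differed in sign.

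Transcription factors of epithelial layers and keratin genes had 12 of 17 tested, with a median of 0.28. By an unadjusted limma p of 0.05, 5 were higher and 0 lower, against 1814 higher and 2438 lower of all 15267 genes (27.9% together). Elf3, an epithelial Ets factor, had ratios of 1.12 and 0.94 (1.03 ± 0.14, limma adjusted p = 0.0667). Foxa2 and Hnf4a, factors of gut endoderm, had 0.66 and 0.57, and Grhl1, a grainyhead factor of surface epithelia, had 0.56. Trp63, which directs stratified epithelium and its Krt5 and Krt14, was never above background, nor were Ovol1, Zfp750 and Tfap2c.

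**Figure D4:**
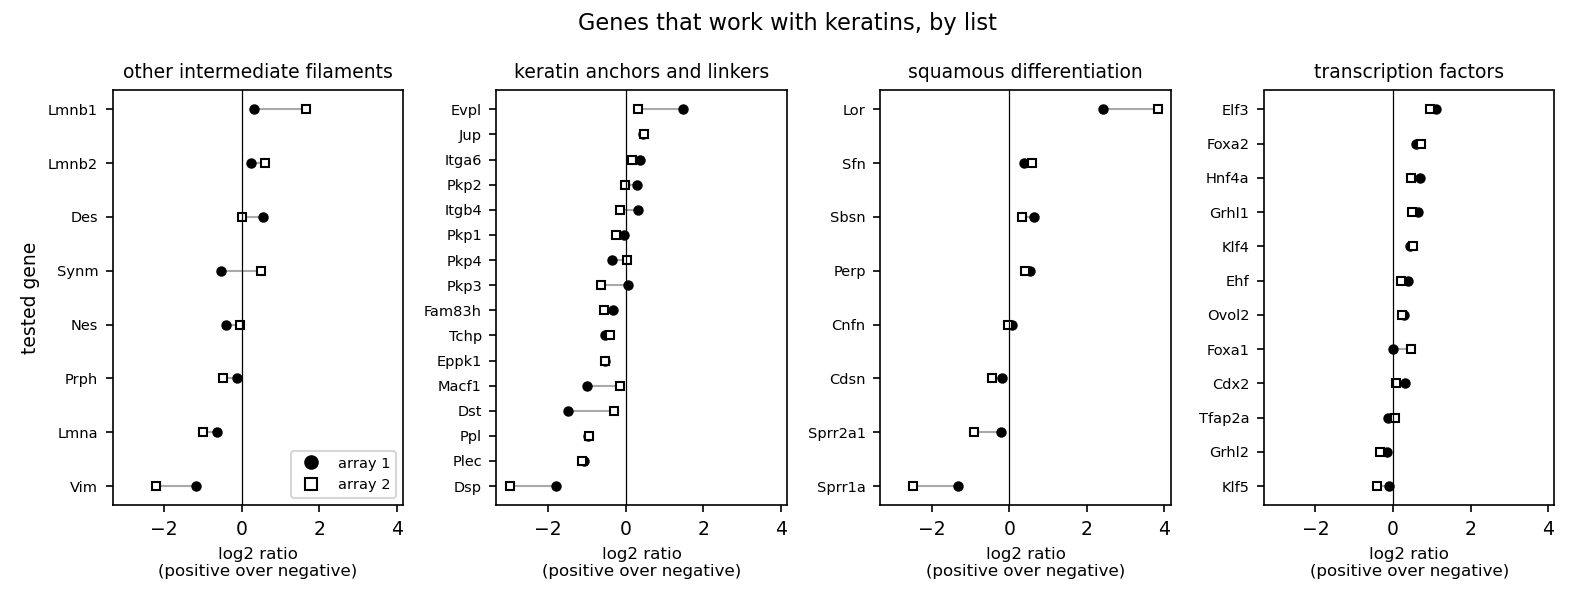
Ratio (log2, CD133-positive over CD133-negative, horizontal) for the tested genes of the 4 lists (vertical), array 1 as filled circles and array 2 as open squares. Dsp, Vim and Sprr1a are below 0 and Lor is above 0 on both arrays.

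Markers of cell types stood beside these values. Of 12 gastric epithelial markers with a probe, 9 were above background on both arrays in CD133-positive cells and 7 in CD133-negative cells, and their summed signal was 143826 and 62090 in CD133-positive cells, against 11758 and 12146 in CD133-negative cells. Gkn2 and Tff1, secreted proteins of gastric surface cells, made up most of that sum in CD133-positive cells, with ratios of 5.60 and 4.40, while Cdh1 had 0.42. Among the defining genes, Atp4a was never above background, Epcam was so only in CD133-negative cells on 1 array and Gkn1 was not in CD133-negative cells. The summed signal of the 8 epidermal markers was 1803 and 3292 in CD133-positive cells, against 1313 and 1330 in CD133-negative cells, the excess being mostly that of Lor, and Trp63 and Dsg3 were never above background. Fibroblast and muscle markers summed to 8839 and 9523 in CD133-positive cells, against 8070 and 9043 in CD133-negative cells, with Pdgfra, Pdgfrb and Thy1 never above background. Most of that sum was Acta2, while Col1a1, a fibrillar collagen, had ratios of -1.03 and -1.47 (limma adjusted p = 0.0673). Blood markers summed to 433 and 379 in CD133-positive cells, against 386 and 392 in CD133-negative cells, and Ptprc was never above background. Endothelial markers summed to 432 and 631 in CD133-positive cells, against 248 and 258 in CD133-negative cells, through Cdh5 alone, while Pecam1, Kdr and Tek were never above background. Of the 9 tested gastric markers, 8 were higher in CD133-positive cells on both arrays, against 32.6% of all genes, and Muc6 had opposite signs. In limma 3 passed, as higher, against 1.38% of all genes. Gkn1 and Pgc entered the test only through CD133-positive cells, so the filter favoured a higher value there. The part of the gastric markers in the ratio of Krt23 was not tested.

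Krt23 kept its direction under every setting tried, with mean ratios between 4.88 and 6.43, and it passed in 12 of 13 settings, the exception being the fit without moderated variances. Relative to the median of all genes in each setting, Krt7 was between 1.00 and 1.43, Krt19 between -1.30 and -0.52, Krt18 between -1.12 and -0.19, and Krt8 between -1.37 and 0.17. Krt8, Krt18 and Krt19 passed as lower with median centring in place of loess. That centring put the median of all genes at -0.74 when done over all probes and at -0.08 over the tested probes. With it, 66.2% of all genes passed over all probes and 26.8% over the tested probes, against 8 of the 18 tested keratins each time. Over the tested probes, the stratified keratins Krt1, Krt5, Krt6a and Krt14 also passed, as higher, with ratios of 0.70, 0.60, 0.75 and 0.65. Over all probes, Krt10, Krt13, Krt17 and Krt78 passed, as lower, with ratios of -0.96, -0.75, -0.53 and -0.86.

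**Figure D5:**
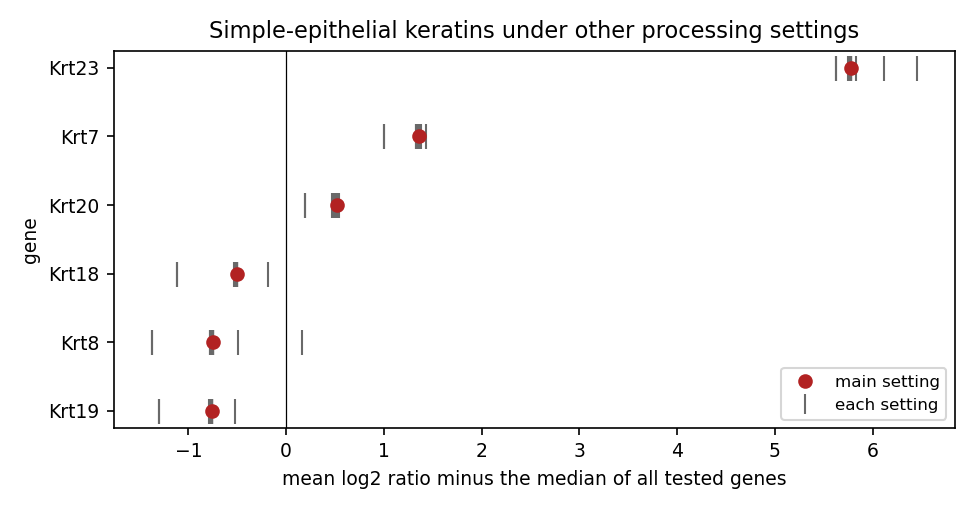
Mean ratio (log2, CD133-positive over CD133-negative) minus the median of all tested genes (horizontal) for the 6 simple-epithelial keratins (vertical), under the main setting (red circle) and each alternative (grey bar). Krt23 stays above 5, and the Krt8 bar above 0 is that of processed signals, where another Krt8 probe stands for the gene.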

How the data were processed

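Per the labels, sorted cells were extracted with Trizol and the RNA amplified and labelled for 2-colour Agilent arrays. Per the file headers, Agilent Feature Extraction 9.5.3.1 read each spot, and the deposited intensity columns used here are its raw mean and local background. Its processed intensity, deposited as well, had background subtracted and the dyes normalised. A deposited log10 ratio gives red over green, hence CD133-negative over CD133-positive, and was the same for each of 45018 spots as in the value table. No spot was saturated.

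Here, intensities were corrected by normexp (offset 50), normalised by loess with control spots at weight 0, turned to log2 of CD133-positive over CD133-negative and averaged over spots of a probe. A probe was tested if the same dye was well above background on each array, with no outlier flag, and a gene by its brightest tested probe. Fractions were compared with limma 3.58.1 in R 4.3.3, two-sided, at 0.05 after Benjamini-Hochberg adjustment across every tested gene, with 1 residual degree of freedom per gene and 2.86 prior ones. Names came from a RefSeq table (GRCm38.p6): 38 of the 50 keratin probes by accession, 10 by symbol, 1 by synonym and 1, Krt85, kept from the file. On simulated data for the all-gene comparison (15267 genes), 0% of log2 changes of 1, 77.6% of 2 and 98.5% of 4 were recovered. Every tested keratin is named. From each partner list, so are the called members and up to 4 with the largest ratio and equal sign on both arrays. Other partner genes named were picked for their detection, except Jup, named as the only anchor counted as higher. One gene of the transcription factor list is not reported here and was left out of its counts. Keratins and lists were chosen with earlier results of these data known.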

Additional observations from a re-analysis of the deposited data

How the results depend on the processing

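Tried were other background corrections, normalisations, variance models, probe filters and summaries, and single arrays; centring on the tested probes was chosen after seeing the data. Genes passing numbered 251, against 548 with an offset of 16, 404 without background correction, 10107 (484 higher) with median centring over all probes, 4097 (2047 higher) over the tested probes, 629 (370 higher) with scaling between arrays, 486 with processed signals, 820 with an intensity trend, 1036 with separate channels and the array as replicate block, 29 without the dim filter and 0 without moderation (1507 at an unadjusted p of 0.05). Keratins passing numbered 8 under both centrings, where 66.2% (over all probes) and 26.8% (over the tested probes) of all genes passed. They numbered 2 with the replicate block (Krt8 joined Krt23) and 0 without moderation (2 unadjusted), where Krt23 had an adjusted p of 0.449. Partner genes passing numbered 2 with an offset of 16, 1 without background correction, 25 and 13 with the 2 centrings, 3 with scaling, 2 with processed signals, 5 with a trend, 5 with the replicate block and 1 with both channels above background. The simple keratin median moved to -1.20 and -0.54 with the centrings and to -0.54 without Krt23, was 0.30 with processed signals, and on single arrays lay between -0.36 and 0.30. The stratified median was -0.056 with an offset of 16, 0.028 without background correction, -0.21 and 0.45 with the centrings, 0.072 with processed signals, -0.033 with both channels required and 0.029 without the dim filter, and between -0.015 and -0.0073 on single arrays. Keratins at least 2-fold numbered 1 to 3 on single arrays, and all genes 970 to 1847, against 1 and 705 on both. Signs turned with centring over all probes for Krt1 (0.041), Krt13 (-0.75), Krt14 (-0.0096), Krt15 (-0.17), Krt20 (-0.55), Krt80 (-0.21), Lmnb2 (-0.32), Sfn (-0.60), Foxa2 (-0.51), Grhl1 (-0.085) and Hnf4a (-0.31). They turned with centring over the tested probes for Krt1 (0.70), Krt13 (-0.085), Krt16 (0.30), Krt17 (0.13), Krt36 (0.34) and Krt5 (0.60). With processed signals they turned for Krt1 (0.16) and, through a swap to its other probe, Krt8 (0.15), without background correction for Krt1 (0.038) and with the mean over probes for Sprr2a1 (0.92). The causes were not tested. Weak signals near background limit the stratified and hair keratins.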

Other observations

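Keratin genes that RefSeq names today but whose spots carry another name in the files lay outside the rule. Krt79, a type II keratin next to Krt78 on chromosome 15, had ratios of -1.09 and -2.44, with a mean of -1.77 (limma adjusted p = 0.0933). Krt88, a neighbour of Krt7, had 0.10 and 0.02, with a mean of 0.06 (limma adjusted p = 0.839). Krt86 and Krt90 were not above background.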
